A study of Mus musculus with 6 samples.

Results

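The genes described here encode the proteasome, the protease that degrades ubiquitin-tagged proteins, and the proteins that regulate or assemble it. They were taken as every gene of the deposited tables whose symbol starts with Psm, a letter from a to g and a digit, pseudogenes left out, which gave 51 of 21899 listed genes. By role they were 8 alpha and 7 constitutive beta subunits of the 20S core, 4 inducible or thymic beta subunits, 9 subunits of the base and 8 of the lid of the 19S cap, 6 activator and inhibitor genes and 7 assembly chaperones. A further 2 genes, Psmc3ip and Psme3ip1, matched by symbol only: the first encodes a meiotic recombination factor and the second a protein that binds the activator Psme3.

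The samples were induced regulatory T cells (iTregs) made from mouse splenic CD4+ T cells, 3 from iWT mice (WT) and 3 from Dlst-Treg iKO mice (KO). Both groups were kept under Treg-polarising conditions for 2 days, both received 4-hydroxytamoxifen, and CD4+ cells positive for FoxP3-GFP and tdTomato-RFP were sorted for RNA. Dlst encodes the succinyltransferase subunit of the mitochondrial 2-oxoglutarate dehydrogenase complex, and the series title places the study in work on succinate and the degradation of FoxP3. The promoter that drives the recombinase, and the strain, age and sex of the mice, are not stated in these sources, nor is it said whether each sample came from its own mouse. The p-values therefore speak only of the variation among these 6 samples, part of which may be technical.

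The 20S core is a barrel of stacked rings. Its outer rings, of alpha subunits, gate the entrance, and its inner rings, of beta subunits, hold the active sites of Psmb5 (chymotrypsin-like), Psmb6 (caspase-like) and Psmb7 (trypsin-like). Interferons induce Psmb8, Psmb9 and Psmb10, which take those 3 places in the immunoproteasome and are also common in resting lymphocytes. The 19S cap binds ubiquitin chains, removes them and threads the substrate into the core with a ring of ATPases, while PA28 (Psme1 and Psme2, or Psme3) and PA200 (Psme4) are alternative caps. Subunit genes are known to be transcribed together through antioxidant response elements bound by the factor NRF1 (gene Nfe2l1) or its relative NRF2 (Nfe2l2).

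Total counts per sample ran from 33590510 to 49772670. Values compared between samples are CPM, gene counts scaled to the library total after TMM normalization. Dlst stood at 161, 149 and 149 CPM in the WT samples and at 125, 129 and 129 CPM in the KO samples (log2 fold change -0.26, SE 0.05, edgeR adjusted p = 0.0894). All 3 KO samples were below all 3 WT samples, and most of the Dlst mRNA signal remained. The deleted part of the gene is not stated, so some of these reads may lie outside it. KO replicate 1 stood apart from the other 5 samples. The Y-linked Ddx3y was at 80.8 CPM and Eif2s3y at 82.4 CPM there, against at most 0.0257 and 0 CPM elsewhere. All 8 neutrophil and all 8 monocyte and macrophage markers were highest in it. Neutrophil markers summed to between 4.61 and 30.8 CPM in WT and between 71.3 and 294 CPM in KO, and monocyte markers to between 20.3 and 29.0 CPM in WT and between 93.0 and 355 CPM in KO. No marker on either list was at 0 in all samples. CD8 markers summed to 42.8 to 77.2 CPM in WT and 86.3 to 101 CPM in KO, B-cell markers to 11.6 to 74.4 and 24.2 to 25.7 CPM, and dendritic-cell markers to 3.23 to 4.15 and 6.64 to 10.3 CPM. The 6 T-cell and Treg markers summed to between 3042 and 3487 CPM in WT and between 2915 and 3293 CPM in KO, a sum that is mostly Il2ra. Within that list Ikzf2 was lower (log2 fold change -0.57, edgeR adjusted p = 0.0366), and without overlap but short of the threshold Cd4 was lower (-0.19) and Foxp3 higher (0.26). Of the other lists, Mrc1 (2.37), C3ar1 (3.94) and Itgax (1.60) passed the test, each higher in KO. KO replicate 1 thus differed from the other 5 samples in Y-linked expression as well as in these markers. The part of either in the results below was not tested, nor was the part of other cells in the other samples. The class values below are given with and without KO replicate 1.

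No proteasome gene passed the test. Of 50 tested members (Psmb11, the thymic beta subunit, was between 0.0215 and 0.200 CPM and had too few counts), 0 passed an adjusted p of 0.05 in edgeR's quasi-likelihood test, where 0.674% of 12768 tested genes passed, 58 of them higher (0.454%) and 28 lower in KO (0.219%). With the replicate numbers as a block 177 genes passed (1.39%), none of them a member. DESeq2 called 532 genes (4.17%) and again no member. At an unadjusted p under 0.05 there were 4 members, Psmb2 lower and Psmb5, Psmb8 and Psmb10 higher in KO, against 15.1% of all tested genes. DESeq2 also had 4 members under that value, and limma on log2(TPM + 1) had 6. The shares of all tested genes under it in those fits were not computed, so these counts have no background beside them. In limma no member passed the adjusted threshold, which 0.282% of genes passed.

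The members still leaned one way. Of the 50, 41 had a log2 fold change below 0, against 50.9% of all tested genes, and their median was -0.06 against -0.003 over all tested genes. In 15 members every KO sample was below every WT sample, where 10.9% of all tested genes did so, and in 0 members was every KO sample above, against 11.9%. KO replicate 1 was the lowest of the 6 samples for 36 of the 50 members, against 26.6% of all tested genes. The median deviation of the members from their WT mean (log2 scale) was -0.14, -0.03 and -0.04 in KO replicates 1, 2 and 3. In the 3 WT samples it was 0.0001, 0.003 and 0.002. The WT deviations of each gene centre on 0 by construction, so these values do not show the spread among WT samples. Without KO replicate 1 the median log2 fold change was -0.03, 39 members were below 0, and 18 were lower without overlap against 15.6% of all tested genes. Members of one complex are not independent measurements, so these counts are descriptions and carry no test. In bulk RNA a smaller share of cells of one type cannot be told apart from less mRNA per cell.

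**Figure D1:**
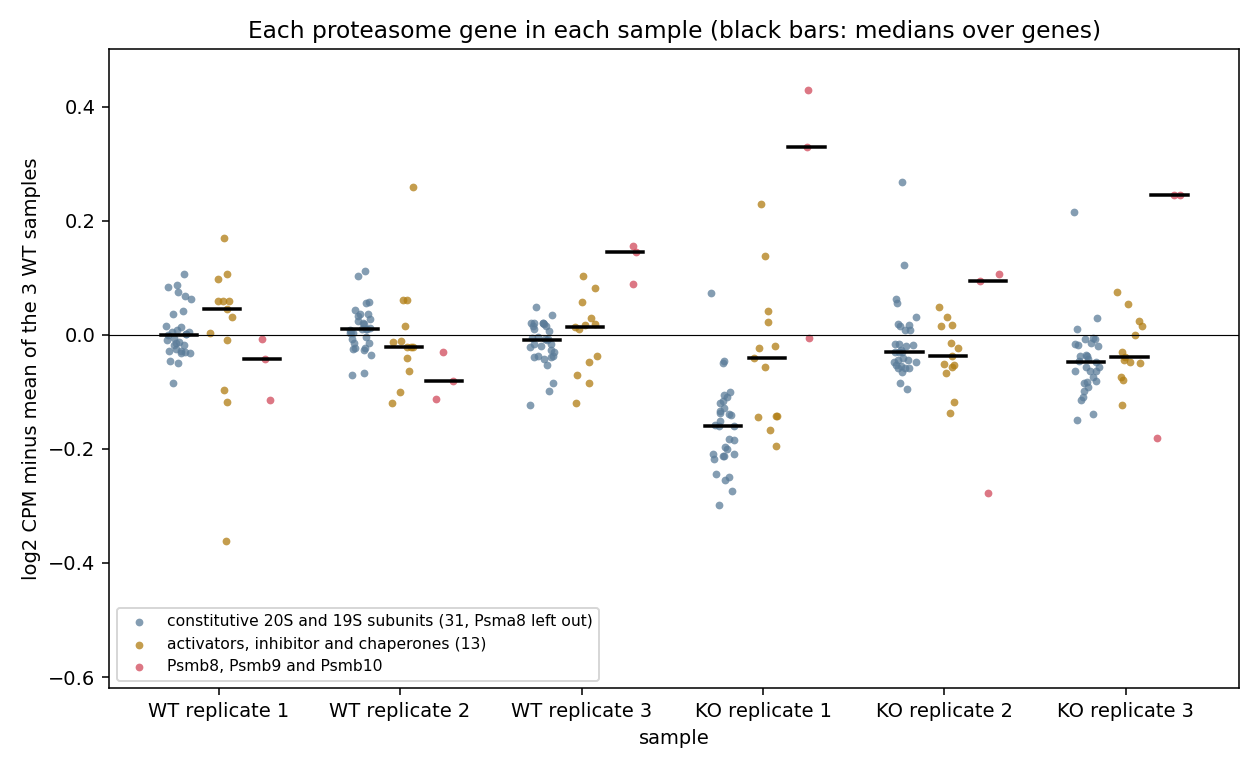
Deviation of each proteasome gene from the mean of the 3 WT samples (log2 CPM) in each of the 6 samples. Each point is 1 gene, black bars are medians over genes, and Psma8, Psmb11 and the 2 symbol-only matches are left out. The constitutive subunits are lowest in KO replicate 1, where 30 of 31 have their lowest value, while 2 of the 3 inducible subunits are above 0 there.

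The constitutive core and cap were expressed at similar levels and measured closely. Leaving out Psma8, the alpha subunit of the germline proteasome, the 31 constitutive 20S and 19S subunits had mean levels per length between 130.4 TPM (Psmd1) and 333 TPM (Psma7), where TPM scales counts by transcript length as well as by the library. Within any 1 sample the highest and lowest of them differed by 2.41 to 2.72 times. Each had between 3473 and 19580 counts per sample, so counting error alone was at most 1.70%. The highest sample exceeded the lowest by a factor of 1.08 to 1.29 (median 1.16 over the 31 genes). The SE of the log2 fold change was 0.05 to 0.07, and every one of the 31 intervals (95%, each gene on its own) lay within 1.3-fold of no difference, from 0.805 to 1.28 on the linear scale. Of the 31, 29 had a log2 fold change below 0 (median -0.08), 13 were lower without overlap, and 30 were lowest in KO replicate 1, beside 50.9%, 10.9% and 26.6% of all tested genes. Without that sample the median was -0.04, with 25 below 0.

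**Figure D2:**
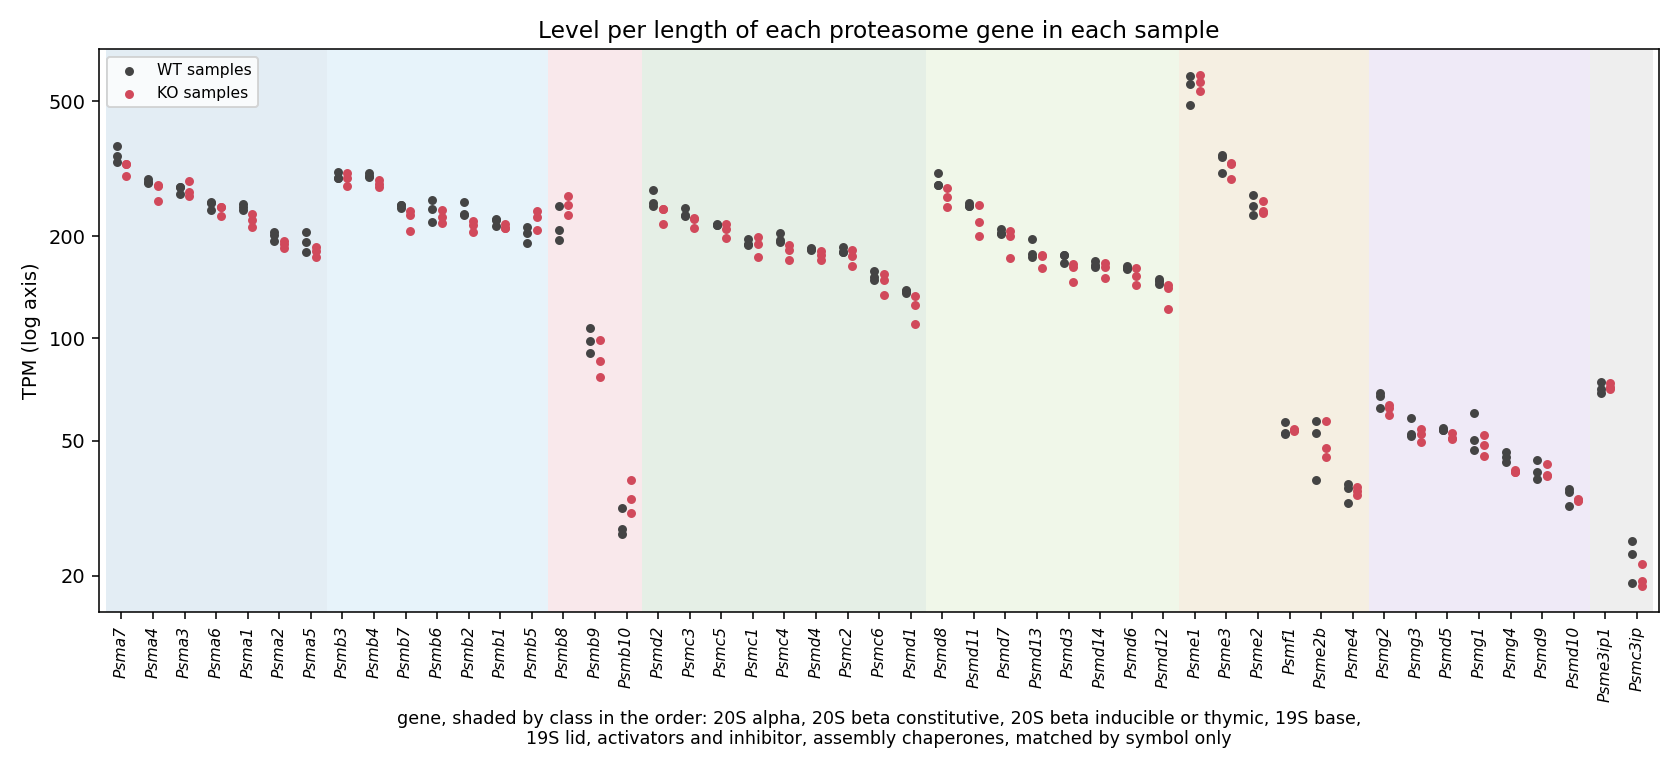
Level per length (TPM, log axis) of 49 genes in each sample, ordered by class and, within a class, by mean level. Psma8 and Psmb11, both under 1 TPM, are left out. The constitutive subunits lie in one band, Psme1 is above it, and Psmb9, Psmb10 and the chaperones are below it.

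In the outer rings of the core, 3 of the 7 somatic alpha subunits, Psma1, Psma2 and Psma4, were lower in KO without overlap, beside 10.9% of all tested genes. Psma7, the highest of the class, was at 194, 185 and 173 CPM in WT and 158, 173 and 173 CPM in KO (log2 fold change -0.13, SE 0.06, edgeR adjusted p = 0.374). WT replicate 3 and the KO samples overlapped. Psma3 was the one alpha gene above 0 (0.03). Psma8 was at 0.333, 0.597 and 0.474 CPM in WT and 0.359, 0.119 and 0.257 CPM in KO. Its log2 fold change of -0.89 had an SE of 0.44, and the groups overlapped. The alpha genes together summed to 1799 ± 50.5 TPM in WT and 1697 ± 72.3 TPM in KO (SD, n = 3 each), a ratio of 0.943, or 0.965 without KO replicate 1.

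Among the constitutive beta subunits, Psmb2, a subunit without an active site, had the smallest p of all members. It was at 123, 116 and 114 CPM in WT and 101, 110.1 and 107 CPM in KO, a log2 fold change of -0.15 (SE 0.06, edgeR adjusted p = 0.278, or -0.12 without KO replicate 1). All KO samples were below all WT samples. Psmb3, another structural subunit and the highest of the class per length, was at 130.1, 138 and 129.9 CPM in WT and 124, 131 and 135 CPM in KO. Its log2 fold change was -0.03 (SE 0.06) with overlapping groups, and its sign turned without KO replicate 1 (0.007) or WT replicate 2 (0.001). The 7 genes summed to 1750.0 ± 26.3 TPM in WT and 1686 ± 65.3 TPM in KO (SD, n = 3 each), a ratio of 0.964, or 0.985 without KO replicate 1.

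The 3 catalytic genes of the constitutive core went different ways. Psmb5 was at 101, 109.9 and 94.9 CPM in WT and 107, 122 and 118 CPM in KO. Its log2 fold change was 0.18 (SE 0.07, edgeR adjusted p = 0.305), and 0.24 without KO replicate 1, which held its lowest KO value. KO replicates 2 and 3 were above all WT samples, and KO replicate 1 was below WT replicate 2. Psmb6 was at 116, 112 and 100.4 CPM in WT and 100.1, 110.0 and 105 CPM in KO, a log2 fold change of -0.06 (SE 0.07) with overlap. Psmb7 was at 161, 167 and 163 CPM in WT and 138, 158 and 154 CPM in KO, all KO samples lower (-0.12, SE 0.06, edgeR adjusted p = 0.403, or -0.07 without KO replicate 1). Psmb5 lies at chr14:54614119-54618022, Psmb6 at chr11:70525367-70527858 and Psmb7 at chr2:38588036-38644087 (GRCm38, GENCODE M21).

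The antioxidant response element is 1 of the motifs tied to shared transcription of subunit genes. The promoters of Psmb5 and Psmb6 are shown as 2 of those that hold it close to the start. The log2 fold changes of these genes were 0.18 and -0.06, and neither gene passed the test. RefSeq (GRCm38.p6) gave a window of 250 bases before to 50 bases after the start for 43 of the 51 genes. The windows not matched were those of Psma8, Psmb1, Psmb2, Psmb7, Psmc3, Psmd3, Psmd7 and Psmg2. Capitals mark the match to TGACNNNGC. The Psmb5 sequence is chr14:54618023-54618245, minus strand, without the 27 bases next to the start, which GENCODE M21 places in an exon. Its match begins 47 bases before the start.
Psmb5: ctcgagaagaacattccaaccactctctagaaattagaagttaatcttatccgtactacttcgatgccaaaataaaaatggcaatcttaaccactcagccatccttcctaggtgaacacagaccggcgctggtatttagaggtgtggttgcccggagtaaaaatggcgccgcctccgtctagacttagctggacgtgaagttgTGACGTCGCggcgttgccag
The Psmb6 sequence is chr11:70525107-70525356, plus strand, and its match begins 9 bases before the start.
Psmb6: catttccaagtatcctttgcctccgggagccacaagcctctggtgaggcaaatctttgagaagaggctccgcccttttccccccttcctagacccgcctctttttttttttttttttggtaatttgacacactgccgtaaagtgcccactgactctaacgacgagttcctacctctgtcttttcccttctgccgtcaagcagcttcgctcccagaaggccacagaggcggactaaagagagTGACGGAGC
On either strand, TGACNNNGC was found in 6 of 43 member windows (14.0%) and in 12.4% of 32851 windows of the same length. The other 4 members were Psmc6, Psmd12, Psmd9 and Psme4, with log2 fold changes of -0.04, -0.11, -0.03 and 0.03. In Psmd9 and Psme4 the match also begins close to the start, 31 and 7 bases before it. The CCAAT box, CCAAT on either strand, was in 16 member windows (37.2%) and in 37.4% of all windows. A match is only a run of letters and no evidence that a factor binds it.

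Of the 3 tested inducible catalytic subunits, 2 had positive log2 fold changes and 1 a negative one, and none passed the test. Psmb8, which replaces Psmb5, was at 125, 119 and 144 CPM in WT and 162, 138 and 153 CPM in KO (log2 fold change 0.22, SE 0.09, edgeR adjusted p = 0.296). WT replicate 3 was above KO replicate 2, and KO replicate 1 was the highest sample. Psmb10, which replaces Psmb7, was at 19.8, 20.97 and 23.7 CPM in WT and 28.8, 23.1 and 25.4 CPM in KO (0.26, SE 0.10, edgeR adjusted p = 0.29). WT replicate 3 again overlapped KO replicate 2, and KO replicate 1 again stood highest. Without KO replicate 1 the log2 fold changes were 0.17 for Psmb8 and 0.17 for Psmb10. KO replicate 1 is also the sample with the highest neutrophil and monocyte marker levels, and the part of such cells in these 2 genes was not tested.

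Psmb9, which replaces Psmb6, went the other way. It was at 50.5, 48.0 and 54.0 CPM in WT and 50.6, 41.9 and 44.8 CPM in KO (log2 fold change -0.15, SE 0.08, edgeR adjusted p = 0.426). KO replicate 1 lay among the WT samples, and KO replicates 2 and 3 were below all of them. Without KO replicate 1 its log2 fold change was -0.23 (edgeR adjusted p = 0.271). Psmb8 lies at chr17:34197721-34201454 and Psmb9 at chr17:34181987-34187764, in the class II region of the MHC, and Psmb10 lies apart at chr8:105935735-105938444. An exon of Psmb9 shares 212 bases with Tap1 on the opposite strand and Psmb8 shares 498 with an antisense transcript, Gm20496. Whether the counting used strand is not given in the sources used here. Psmb9 counts were not whole numbers, so reads may be shared between Psmb9 and Tap1. Psmb8 counts were whole in every sample. The overlap limit holds for other members too, as 16 of the 51 share exon bases with another gene. Among them are Psmb7 (405 bases with Nek6, opposite strand) and Psmd1 (301 with Gm21972, same strand), and the counts of both were not whole numbers. Others of them, such as Psmb5 and Psme1, had whole counts. Tap1 itself, which carries peptides to MHC class I, was lower without overlap, at 205, 202 and 212 CPM in WT and 191, 178 and 181 CPM in KO (-0.17, SE 0.05, edgeR adjusted p = 0.194).

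Per length, the inducible genes were present in unequal amounts, and their summed TPM had a KO to WT ratio of 1.07, or 1.03 without KO replicate 1, with overlapping groups. Psmb8 was about level with Psmb5: its TPM was 1.02, 0.919 and 1.29 times that of Psmb5 in WT and 1.26, 0.975 and 1.09 times in KO, with overlapping groups. Psmb9 was at 0.386, 0.375 and 0.485 of the Psmb6 level in WT and 0.453, 0.323 and 0.377 in KO, also overlapping. Psmb10 was the scarcest, at 0.109, 0.111 and 0.128 of the Psmb7 level in WT and 0.184, 0.129 and 0.145 in KO. There the KO samples were all above the WT samples, narrowly at the nearest pair (0.1288 against 0.1282), with a KO to WT ratio of means of 1.32, or 1.18 without KO replicate 1. With 3 samples against 3 an exact permutation test cannot go below p = 0.1, and none is given for these ratios. TPM is a level of mRNA and says nothing of how much of each subunit is built into proteasomes.

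**Figure D3:**
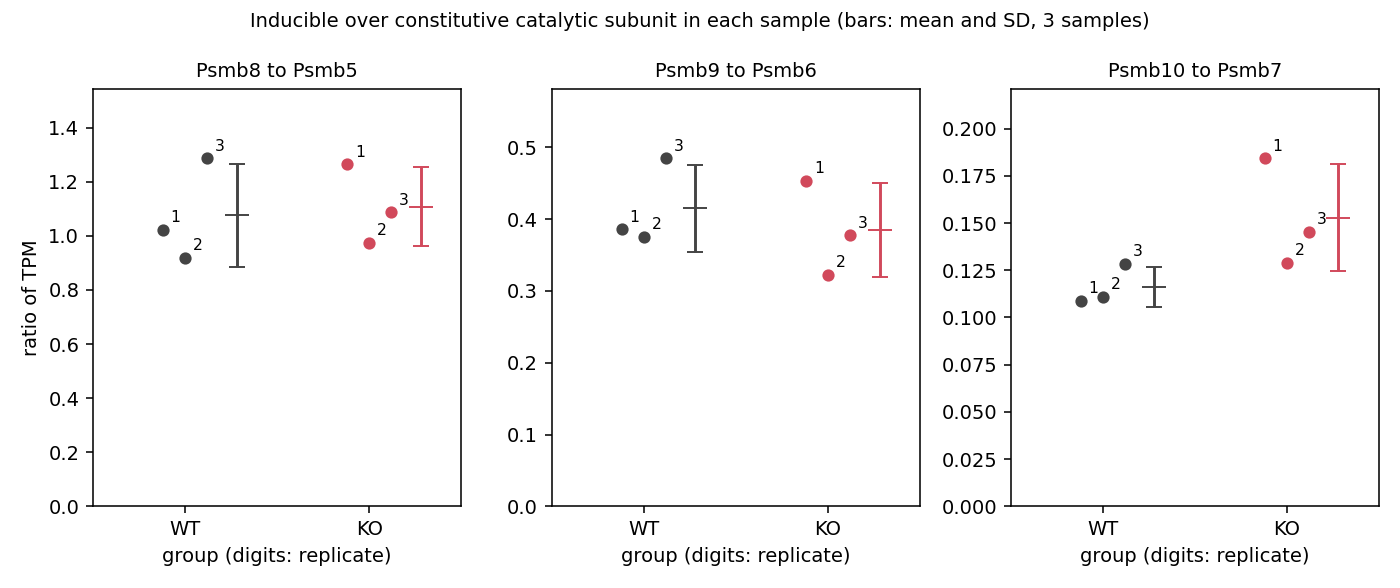
Ratio of TPM of each inducible subunit to the constitutive subunit it replaces, per sample, with digits for the replicate number and bars for mean and SD of 3 samples. The groups overlap for Psmb8 to Psmb5 and Psmb9 to Psmb6, and KO replicate 1 is highest for Psmb10 to Psmb7 at 0.184.

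All 17 genes of the 19S cap had log2 fold changes below 0, 9 of 9 in the base and 8 of 8 in the lid, with medians of -0.06 and -0.09, beside 50.9% of all tested genes below 0. Without KO replicate 1, the lowest sample for all 17, there were 7 of 9 and 7 of 8 below 0, with medians of -0.04 and -0.03. None passed the test. The base holds the ATPase ring (Psmc1 to Psmc6), the scaffolds Psmd1 and Psmd2 and the ubiquitin receptor Psmd4. In it 4 of 9 genes were lower without overlap, beside 10.9% of all tested genes. Without KO replicate 1 the count was also 4, beside 15.6%. Psmd1 was at 241, 239 and 235 CPM in WT and 194, 231 and 220.4 CPM in KO (log2 fold change -0.15, SE 0.07, edgeR adjusted p = 0.361). KO replicate 1 was far below the rest, and the value without it was -0.08. Psmd2, the highest of the base per length, was at 443, 417 and 413 CPM in WT and 366, 407 and 393 CPM in KO (-0.13, SE 0.06, edgeR adjusted p = 0.364, or -0.08 without KO replicate 1). Summed over the base, the level was 1773, 1725 and 1756 TPM in WT and 1549, 1721 and 1673 TPM in KO, lower without overlap but with KO replicate 2 just under WT replicate 2. The ratio of means was 0.941, or 0.969 without KO replicate 1.

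The lid carries Psmd14, which cleaves ubiquitin chains from substrates, among scaffold subunits. Psmd8, its highest member per length, was at 224.9, 249.8 and 224.2 CPM in WT and 195.8, 223.5 and 209.8 CPM in KO (log2 fold change -0.15, SE 0.07, edgeR adjusted p = 0.358). All KO samples were lower, KO replicate 2 by less than 1 CPM. Psmd3 was at 201, 208 and 197 CPM in WT and 175, 195 and 192 CPM in KO (-0.11, SE 0.06, or -0.06 without KO replicate 1). Psmd12, the lowest of the lid, was at 130.4, 130.5 and 133 CPM in WT and 109, 128 and 127 CPM in KO (-0.11, SE 0.07, or -0.04 without KO replicate 1). Both had no overlap between groups, and in both KO replicates 2 and 3 lay close under the WT samples. Psmd14 stood at -0.05 with overlap. The lid sum was 1577, 1572 and 1569.8 TPM in WT and 1341, 1536 and 1484 TPM in KO, with a ratio of means of 0.924, or 0.960 without KO replicate 1. The 3 WT sums had an SD of 3.68 TPM and the 3 KO sums one of 101 TPM.

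**Figure D4:**
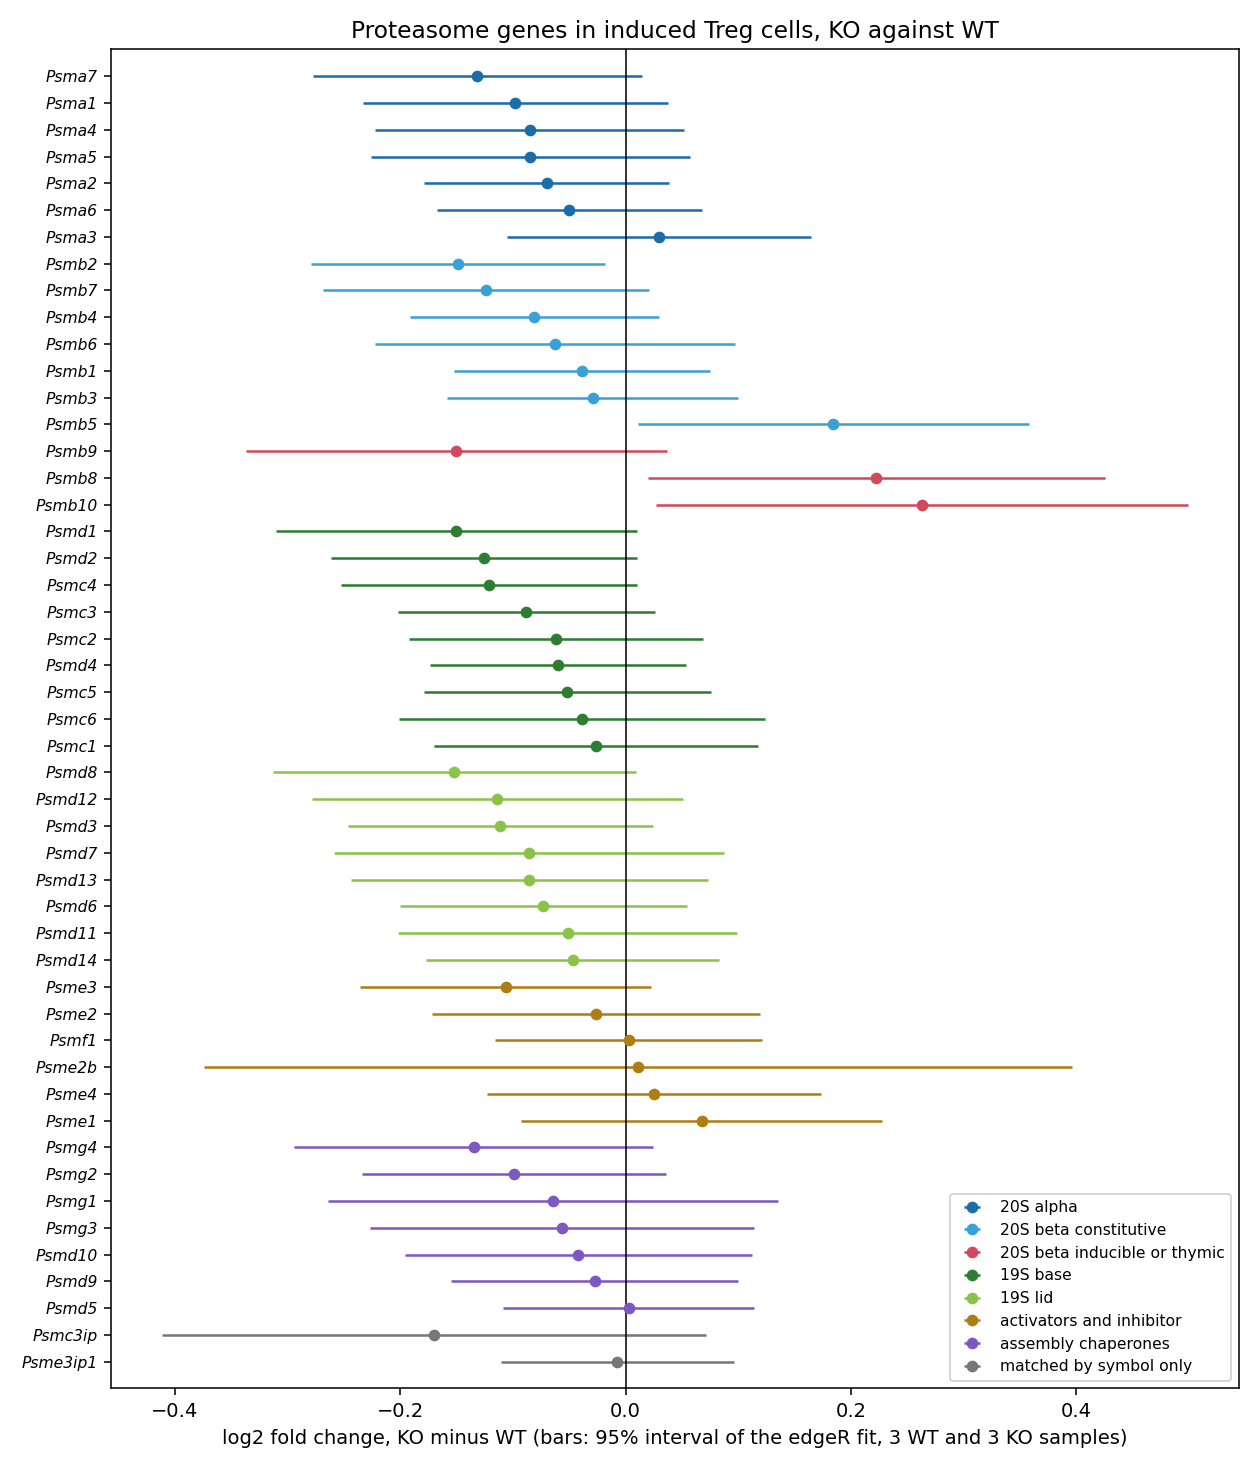
Log2 fold change (KO minus WT) of 49 proteasome genes with the 95% interval of the edgeR fit, by class. Psma8 (-0.89, with a far wider interval) and Psmb11 (not tested) are left out. The intervals of Psmb2, Psmb5, Psmb8 and Psmb10 leave out 0 before any adjustment, and all 17 cap genes lie left of 0.

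Of the 6 activator and inhibitor genes, 2 had log2 fold changes below 0 (median 0.007), and without KO replicate 1 there were 4 (median -0.03). The difference from the cap was not tested. Psme1, the alpha subunit of PA28 and the highest proteasome gene per length (557 TPM), was at 205, 176 and 192 CPM in WT and 209.8, 193 and 198 CPM in KO (log2 fold change 0.07, SE 0.07, or 0.03 without KO replicate 1, 0.01 without WT replicate 2 and 0.12 without WT replicate 1). Psme2, its partner, was at 106, 114 and 119.8 CPM in WT and 117, 108 and 109 CPM in KO (-0.03, SE 0.06, or 0.015 without WT replicate 3). Groups overlapped for both. Psme2b, a near-copy of Psme2 on chromosome 11, took 14.7% to 19.6% of their summed CPM per sample, and the counts of both were not whole numbers, so how reads were split between them is uncertain. Their sum was 124, 142 and 145 CPM in WT and 144, 129.6 and 132 CPM in KO.

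Psme3, the nuclear PA28 subunit, was at 419.6, 399 and 414 CPM in WT and 359, 396 and 390.2 CPM in KO, lower without overlap (log2 fold change -0.11, SE 0.06, edgeR adjusted p = 0.418, or -0.06 without KO replicate 1). In TPM the groups overlapped, at 347, 307 and 342 in WT and 295, 329 and 326 in KO. Psme4 (PA200) was at 117, 133 and 132 CPM in WT and 125, 130.0 and 134 CPM in KO (0.03, SE 0.06), and its sign turned without WT replicate 1 (-0.03). The inhibitor gene Psmf1 stood at 0.003 with overlap. The summed level of the class was 1265 ± 67.0 TPM in WT and 1265 ± 30.6 TPM in KO (SD, n = 3 each), with a ratio of 0.989 without KO replicate 1.

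Of the 7 assembly chaperones, 6 had log2 fold changes below 0 (median -0.06, or -0.03 without KO replicate 1), and their levels per length, from 33.9 TPM (Psmd10) to 64.2 TPM (Psmg2), were below those of all 31 constitutive subunits. Psmg4, which helps to order the alpha ring, was at 13.7, 13.6 and 14.1 CPM in WT and 12.5, 12.5 and 12.6 CPM in KO (-0.13, SE 0.07, edgeR adjusted p = 0.408). The groups did not overlap, the KO samples had an SD of 0.0844 CPM, and the value was -0.13 without KO replicate 1 as well. Psmg2, a partner of Psmg1 in alpha-ring assembly, was at 41.8, 38.8 and 41.0 CPM in WT and 36.1, 39.1 and 38.4 CPM in KO (-0.10, SE 0.06) with overlap. Psmd10, a chaperone of the 19S base also called gankyrin, was at 29.4, 29.4 and 26.0 CPM in WT and 27.1, 27.8 and 27.5 CPM in KO (-0.04, SE 0.07), again with overlap. Of the 2 genes matched by symbol only, Psme3ip1 ranged from 65.3 to 66.7 CPM over all 6 samples (-0.01, SE 0.04). Psmc3ip was at 17.3, 13.8 and 15.7 CPM in WT and 15.0, 13.2 and 13.2 CPM in KO (-0.17, SE 0.10, or -0.23 without KO replicate 1 and -0.09 without WT replicate 1) with overlap.

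Other genes of the pathway gave no calls either: 0 of 9 further proteasome components, 0 of 9 genes tied to transcription of subunits, 0 of 11 shuttle and p97 genes and 0 of 13 genes of the MHC class I peptide pathway passed in edgeR, with 0, 1, 0 and 3 at an unadjusted p under 0.05, beside 15.1% of all tested genes. Their median log2 fold changes were -0.03, -0.03, -0.02 and -0.09 in that order, beside -0.003 over all tested genes, and 0.009, -0.03, -0.03 and -0.07 without KO replicate 1. Among the components, the maturation factor Pomp was at 127, 120.3 and 121 CPM in WT and 109.7, 116 and 117 CPM in KO, lower without overlap (-0.10, SE 0.05). Akirin2, which brings proteasomes into the nucleus, had a log2 fold change of 0.16 (SE 0.10) with overlap.

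Nfe2l2 was at 32.2, 35.3 and 38.3 CPM in WT and 42.0, 40.0 and 40.2 CPM in KO. All KO samples were above all WT samples (log2 fold change 0.21, SE 0.07, edgeR adjusted p = 0.242, and 0.19 without KO replicate 1). Ngly1, the enzyme that processes NRF1, was also higher without overlap in CPM at 0.11 (SE 0.05). In TPM its groups overlapped, at 29.2, 31.4 and 32.4 in WT and 34.5, 30.4 and 32.3 in KO. Nfe2l1, which encodes NRF1, stood at -0.03 (SE 0.05) with overlap. The ubiquitin gene Ubb stood at -0.14 (SE 0.05), lower without overlap. Of the shuttle genes, Rad23b was at 0.19 (SE 0.08) and the p97 cofactor Nsfl1c at -0.12 (SE 0.05).

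In the MHC class I list, Nlrc5, the transactivator of class I genes and of Psmb9, was at 159, 160.1 and 164 CPM in WT and 155, 129.5 and 131 CPM in KO (log2 fold change -0.22, SE 0.07, edgeR adjusted p = 0.234, or -0.31 without KO replicate 1). Tap1, Nlrc5 and Psmb9 each had their highest KO value in KO replicate 1 and stood lower in KO replicates 2 and 3. So did Tap2, Tapbp, H2-K1 and H2-D1, whose log2 fold changes were 0.02, 0.12, 0.05 and -0.002 with overlap. The same held for Irf1 (-0.09) and B2m (-0.04), both with overlap, and for Tapbpl (-0.12), which was lower without overlap. Calr, Pdia3, Canx and Erap1 had their lowest KO value in KO replicate 1. A link between Nlrc5 and these genes was not tested. The interferon-stimulated response element, GAAA, any 2 bases and GAAA on either strand, was in 5 member promoter windows (11.6%, Psmb3, Psmd4, Psmd9, Psme1 and Psmg4) and in 3.44% of all windows. The gamma-activated sequence, TTCNNNGAA on either strand, was in 3 (6.98%, Psmb8, Psmd2 and Psmg1) and in 8.30% of all windows.

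Some members have called genes within 1000 kb. The share of all genes with such a neighbour was not computed, so these are positions only. Psmb5 lies 104 kb from the amino acid transporter gene Slc7a8 (log2 fold change 2.27, edgeR adjusted p = 0.0221). The untested Psmb11 lies 92.7 kb from Slc7a8, and Psme1 and Psme2 lie on the same chromosome 796 and 805 kb from it. Psmb9 and Psmb8 lie 42.9 and 58.6 kb from H2-DMa, a peptide-loading gene of MHC class II (0.44, edgeR adjusted p = 0.0306, or 0.39 and 0.0519 without KO replicate 1). Psma6 lies 167 kb from Fam177a2 (0.82, edgeR adjusted p = 0.0124) and stood at -0.05 itself. The muscle myosin genes Myh6 and Myh7 were lower. They lie 324 and 353 kb from Psmb5, 312 and 341 kb from Psmb11 and 583 to 621 kb from Psme1 and Psme2. Myh7 was at 14.6, 9.67 and 14.5 CPM in WT and at most 0.0599 CPM in KO (edgeR adjusted p = 5.83e-05), and Myh6 was at 1.81 to 3.91 CPM in WT and at most 0.0257 CPM in KO. The other called genes in these windows were Srp54a near Psma6 (0.69, edgeR adjusted p = 0.035, or 0.0561 without KO replicate 1) and Rbms1 near Psmd14 (0.34). These distances use GENCODE M21 on GRCm38, which need not be the annotation behind the counts.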

How the data were processed

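RNA was sequenced from 3 WT and 3 KO samples. Libraries were made with the SMARTER mRNA-Seq kit, per the labels' protocols, and the submitters' processing notes name FastQC and HISAT2. No source used here gives the build, the annotation or the counting program. The authors deposited, per sample, estimated counts per gene (29.8% of listed genes hold a value that is not whole) and TPM. Counts were rounded and fitted in R 4.3.3 with edgeR 4.0.16 (TMM, low-count filter, quasi-likelihood test, Benjamini-Hochberg over 12768 of 21899 genes). Totals ran from 33590510 to 49772670 counts. CPM values use TMM-scaled totals, and TPM served for levels per length and ratios. DESeq2 1.42.0 and limma 3.58.1 on log2(TPM + 1) were alternatives. The scripts were tested on simulated data.

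Members and gene lists were chosen with earlier results of these data known. Genes with values in every sample are the exchangeable catalytic and PA28 subunits, the highest and lowest of each class by TPM, the 2 of smallest p in each class, and the largest differences without overlap. Called neighbours were sought within 1000 kb. Positions come from GENCODE M21 and sequences from RefSeq GRCm38.p6. Deviations of samples with the same replicate number were weakly correlated (0.191, 0.124 and 0.108 over genes). Of the 6 samples, 4 correlated best with the sample of their own number in the other group. The number was therefore also fitted as a block. The summary of the list of ubiquitin and E1 genes is not reported here. No pair of samples within a group was alike within sampling noise, and pairs across groups were not compared. The closest pair was KO replicates 2 and 3, the KO samples that remain when KO replicate 1 is left out. Its chi-square of counts per degree of freedom was 3.56, against 14.9 to 43.5 for the other pairs within a group.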

Additional observations from a re-analysis of the deposited data

How the results depend on the processing

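No proteasome member was called under any of the 15 alternatives, and the median log2 fold change of the members stayed below 0, from -0.09 to -0.03. The number of called genes over all tested genes moved with the settings, from 86 to 532 with DESeq2, 133 with no low-count filter, 177 with the replicate block, 538 with both samples numbered 1 left out, 36 with limma on log2(TPM + 1) and 44 with limma and a TPM filter. Leaving out single samples gave 93 (WT replicate 1), 27 (WT replicate 2), 16 (WT replicate 3), 82 (KO replicate 1), 10 (KO replicate 2) and 4 (KO replicate 3). The replicate block changed no call among the members. Of 358 log2 fold changes of named members under alternatives, 349 kept their direction and their side of the threshold, and the 9 that turned were near 0. With single samples left out, Psmb3 ran from -0.058 to 0.0071, Psme2 from -0.074 to 0.015 and Psme4 from -0.032 to 0.056. Psmb3 was above 0 at 0.001 when WT replicate 2 was left out. With both samples numbered 1 left out, Psmb6 stood at 0.013 and Psme4 at -0.0059. Psme3ip1 stood at 0.0134 in limma on log2(TPM + 1), with or without a TPM filter, and at 0.0136 on log2(TPM + 0.1). The cause was not tested. For the 31 constitutive subunits counting error was at most 1.70% per sample, and the SE of their log2 fold changes was 0.05 to 0.07. These are unlike measures, and the part of read depth was not tested. The 3 samples a group are few, and Psma8 and Psmb11 had few counts.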
